A study of Homo sapiens with 9 samples.

Results

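The comparison described here is of the OPA1 knock-down set N_30 with control, 6 of the 9 RNA sequencing libraries of the series, chosen by the column names of the deposited count table. The cells are labelled Huh7, an established line from a human hepatocellular carcinoma. Control is the label of 3 libraries and OPA1 knock-down that of the 3 N_30 libraries. A lentiviral OPA1 knock-down is the treatment text of all of them, controls included, and the labels name neither a control vector nor the meaning of N_30. The other knock-down set, N_28 (3 libraries), is used only for values side by side. Whether libraries of a group are separate cultures is not stated, so p-values here measure a spread that may be technical. All genes that passed a filter on low counts are members, 14637 of 60448 rows.

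OPA1 is a GTPase of the dynamin family that sits in the inner membrane of mitochondria. It fuses inner membranes once the mitofusins have joined the outer ones, and with the MICOS complex it holds the necks of the cristae narrow. The proteases OMA1 and YME1L1 cut it into short forms. Loss of mitochondrial function is known to reach the nucleus through the integrated stress response, in which ATF4 raises genes of amino acid supply and the hormone GDF15.

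Depth was 19510555 to 22164035 counts in control and 16476389 to 22400589 in N_30, and 3 counts, the limit that a count of 0 allows, equal 0.134 to 0.182 CPM (counts in a gene relative to the scaled total of its library, the CPM unit of edgeR). This limit covers counting error only. Of 10 defining markers of hepatocytes, 7 stayed under 1 CPM in each of the 6 libraries, controls included. Albumin (ALB) reached at most 0.601 CPM and the liver factor HNF4A at most 0.180 CPM, so these markers go against a hepatocyte profile, and the cells are called here by their label. The duct keratin KRT7 stood at 658 CPM and the kidney factor PAX2 at 155 CPM in control (means of 3). Summed over its list, the level in control ran from 2067 to 2517 CPM for bile duct and from 223 to 283 CPM for kidney tubule. Of the listed markers, 3 of 7 for bile duct and 4 of 9 for kidney tubule stayed under 1 CPM in each of the 6 libraries. Of the blood markers the summed level was at most 1.80 CPM and of the endothelial markers at most 2.88 CPM in any library.

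OPA1 was lower in every N_30 library than in any control library. Its level was 83.0, 93.2 and 90.9 CPM in control libraries 1, 2 and 3, and 64.1, 63.5 and 66.2 CPM in N_30 libraries 1, 2 and 3. The N_30 libraries lay close together, at 64.6 ± 1.43 CPM against 89.0 ± 5.32 CPM in control (SD, n = 3 each), or 72.6% of control. On the log2 scale OPA1 changed by -0.46 (SE 0.06, adjusted p = 8.52e-05). Throughout, adjusted p-values come from the quasi-likelihood test of edgeR, adjusted over all genes by Benjamini-Hochberg, with the library number as a block, and a gene under 0.05 is called. Without the block OPA1 was called (adjusted p = 0.00872), but not when N_30 library 1 or 2 was then left out (adjusted p = 0.0568 and 0.064). In a bulk library, less OPA1 mRNA per cell and fewer cells that express it cannot be told apart. OPA1 (ENSG00000198836) lies on chromosome 3 from 193593144 to 193697823, plus strand (GRCh38). OPA1-AS1, an antisense gene that shares 208 exon bases with it, had 3 counts over the 6 libraries.

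**Figure D1:**
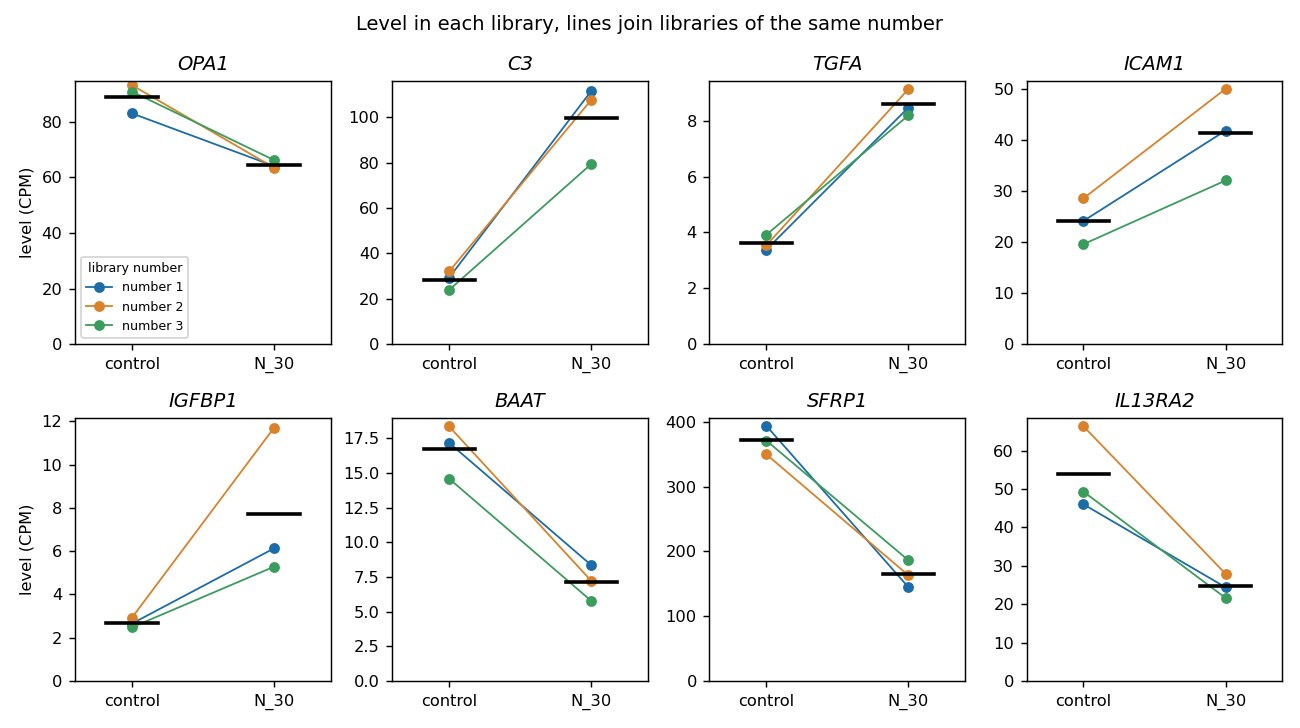
Level in CPM (vertical axes, from 0) of 8 genes in each control and N_30 library; lines join libraries of the same number and black bars are means of 3. OPA1, BAAT, SFRP1 and IL13RA2 lie lower in each N_30 library than in any control library, and C3, TGFA, ICAM1 and IGFBP1 lie higher.

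Across the table, 287 genes rose and 253 fell in N_30, which is 3.69% of 14637 (1.96% higher, 1.73% lower). Most changes were small, with a median size of 0.44 on the log2 scale, and 54 genes changed by at least 1, of which 32 rose. Protein-coding genes were 518 of the 540. In 535 of the 540 the change had the same sign in all 3 numbered pairs, so this trait comes with nearly every call. Of all genes, 49.2% had a fold change above 0, and the median was -0.003. The N_30 libraries lay all above the control libraries for 7.4% of genes and all below for 7.88%. The 30 genes of largest change, C3, IGFBP1, BAAT, DNER and DLK1 among them, were chosen among called genes whose groups did not overlap. For them the lack of overlap was thus given by the choice. The count depends on the block: without it 45 genes rose and 43 fell (0.601%), and all 88 are among the 540. It was 763 higher and 665 lower without the libraries numbered 1, and 143 and 112 by DESeq2 with the block.

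**Figure D2:**
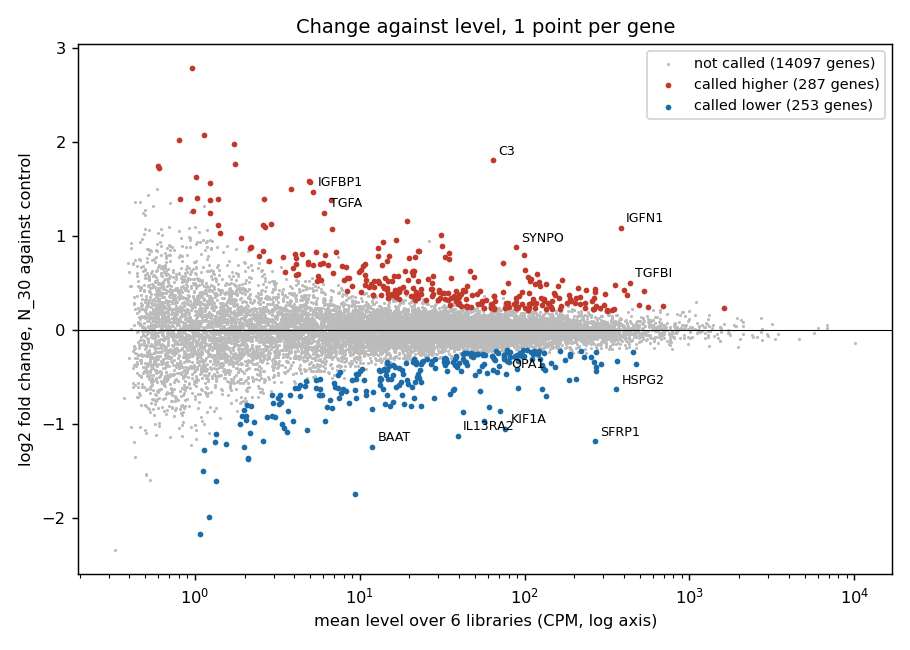
Log2 fold change of N_30 against control (vertical axis) against the mean level of 6 libraries in CPM (horizontal log axis), 1 point per gene. Genes called higher (287) and lower (253) are coloured, the other 14097 are grey, and C3, at 1.80, lies above the other genes of its level.

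Complement, a cascade of plasma proteins that marks cells and microbes for removal, held the largest rise among the well expressed genes. C3, on which all complement routes converge, stood at 29.3, 32.0 and 23.9 CPM in control and at 112, 108 and 79.4 CPM in N_30. Every N_30 library lay far above the controls, and the libraries numbered 3 were lowest in both groups. C3 rose by 1.80 on the log2 scale (SE 0.07, adjusted p = 1.41e-12), called in all 16 alternative fits. The proteases that open the classical route rose too, C1S by 0.69 (adjusted p = 0.000128) and C1R by 0.76 (adjusted p = 0.0065). C1R was low, at 3.07 CPM in control and 5.15 CPM in N_30, and shares 672 exon bases with its neighbour C1RL. SERPING1, the inhibitor of both proteases, fell by 1.21 on the log2 scale (adjusted p = 0.0111), from 2.18 to 0.921 CPM. Clusterin (CLU, 0.13) and CD59 (-0.05), which block the terminal complex, did not pass (adjusted p = 0.275 and 0.773). Of 14 tested members, 4 rose and 1 fell, with a median of 0.15 against -0.003 over all genes. Without the block C3 alone of these was called (adjusted p = 0.201 for C1S, 0.238 for C1R and 0.108 for SERPING1), and SERPING1 was not called without the libraries numbered 1.

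NF-kB is the transcription factor family that answers cytokine receptors, and its list also holds regulators and induced genes. Several members of the list were called higher, and of those NFKB2 alone encodes a subunit. NFKB2, the precursor of the p52 subunit, stood at 73.6, 101 and 74.4 CPM in control and 112, 131 and 86.8 CPM in N_30. The groups overlapped, while each N_30 library lay above the control of its own number, and NFKB2 rose by 0.40 (SE 0.07, adjusted p = 0.00123). TNFAIP2, a cytokine-induced gene, had 115, 104 and 115 CPM in control and 142, 140 and 142 CPM in N_30, a rise of 0.34 (adjusted p = 0.00126). BIRC3, an inhibitor of cell death, rose by 0.63 (adjusted p = 0.0113), and TRAF1, an adaptor of TNF receptors, by 0.98 (adjusted p = 0.0245) from 1.29 to 2.52 CPM. The subunit RELA (0.05) and the inhibitor NFKBIB (0.03) did not pass (adjusted p = 0.754 and 0.893). Over all 14637 genes tested, 2283 had an unadjusted p under 0.05 by edgeR, in either direction. Of 20 members of the NF-kB list 4 rose and 0 fell by edgeR, with 10 higher and 0 lower at an unadjusted p under 0.05, and 2 and 0 by DESeq2. The median was 0.20. Without the block 1 rose (TNFAIP2), without the libraries numbered 3 there were 8, and TRAF1 was lost without those numbered 1 (adjusted p = 0.0977).

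Promoter windows of called members of the NF-kB list are shown because these genes moved together, with a window of BAAT, the bile acid gene described below, beside them. Each is the 250 bases before a gene start in RefSeq (GRCh38.p14), 5′ to 3′ on the gene's strand, with matches to any of 6 motifs in capitals.
NFKB2, chr10:102395455-102395704, plus strand: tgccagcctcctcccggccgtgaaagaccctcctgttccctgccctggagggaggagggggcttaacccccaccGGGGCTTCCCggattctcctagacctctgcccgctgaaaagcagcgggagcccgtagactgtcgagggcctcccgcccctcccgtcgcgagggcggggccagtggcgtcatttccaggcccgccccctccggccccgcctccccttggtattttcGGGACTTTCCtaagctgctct
TNFAIP2, chr14:103123211-103123460, plus strand: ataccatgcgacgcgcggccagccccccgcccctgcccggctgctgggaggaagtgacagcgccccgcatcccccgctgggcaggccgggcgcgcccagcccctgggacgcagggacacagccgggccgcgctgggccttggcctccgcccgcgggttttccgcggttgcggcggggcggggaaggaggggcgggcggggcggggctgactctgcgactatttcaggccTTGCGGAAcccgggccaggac
TRAF1, chr9:120929172-120929421, minus strand: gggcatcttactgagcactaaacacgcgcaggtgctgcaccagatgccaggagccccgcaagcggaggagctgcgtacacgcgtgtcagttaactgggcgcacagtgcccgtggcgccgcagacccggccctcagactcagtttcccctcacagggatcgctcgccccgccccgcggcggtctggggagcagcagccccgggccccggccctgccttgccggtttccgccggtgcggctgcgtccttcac
BAAT, chr9:101383565-101383814, minus strand: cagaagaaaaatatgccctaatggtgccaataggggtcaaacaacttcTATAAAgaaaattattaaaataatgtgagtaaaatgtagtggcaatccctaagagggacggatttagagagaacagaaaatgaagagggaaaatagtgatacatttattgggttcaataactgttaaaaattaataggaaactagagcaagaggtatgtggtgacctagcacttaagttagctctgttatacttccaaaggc

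The capitals in NFKB2 are matches to the NF-kB consensus of 10 bases, 176 to 167 and 21 to 12 bases before the start. Those in TNFAIP2 match C/EBP (TTGCNNAA), 21 to 14 bases before the start, those in BAAT match the TATA box (TATAAA), 202 to 197 bases before it, and the TRAF1 window has none. The other motifs were AP-1 (TGANTCA), STAT (TTCNNNGAA) and FOX (TGTTTAC), all on both strands, and matches may overlap. The windows were picked after their matches were seen, from 3 for NFKB2, 3 for TRAF1 and 2 for BAAT, and the BIRC3 window, which holds an NF-kB match, runs 34 bases into an exon and is not printed. The printed windows share 12 (NFKB2), 19 (TNFAIP2), 2 (TRAF1) and 0 (BAAT) bases with an annotated exon, and the match in TNFAIP2 runs into that gene as GENCODE places its start. The printed NFKB2 window lies inside that gene as GENCODE places it (102394110 to 102402529). The NFKB2 window that ends at 102394109, just before that start, is not printed and holds no match to the 6 motifs. A looser NF-kB pattern (GGG and CC with any 5 bases between), tried first, was set aside because 54.4% of 35116 promoters of this length hold it, against 5.21% for the consensus, 9.05% for C/EBP and 10.7% for TATA. The consensus was in 10.3% of 339 windows of genes that rose, 6.23% of 305 windows of genes that fell and 6.09% of 15779 windows of all genes tested. For the looser pattern these were 75.2, 65.2 and 67.7%, for TATA 9.44, 7.54 and 5.92%, and for C/EBP 6.78, 4.59 and 6.36%. For AP-1 they were 4.13, 5.57 and 4.51%, for STAT 5.6, 5.9 and 5.53%, and for FOX 1.47, 2.62 and 2.25%. The shares describe letters only, and no test was made of them.

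Cytokines and their receptors changed in part. CCL2, a chemokine that draws monocytes, stood at 20.5, 32.7 and 22.6 CPM in control and 45.8, 47.8 and 38.1 CPM in N_30, and rose by 0.81 (SE 0.09, adjusted p = 1.98e-05). The macrophage growth factor CSF1 rose by 0.42 (adjusted p = 0.00149), LIF by 0.31 (adjusted p = 0.00397) and IL32 by 0.26 (adjusted p = 0.0469). CXCL6, which draws neutrophils, fell by 0.55 on the log2 scale (adjusted p = 0.000436) from 27.8 to 19.0 CPM, while CXCL8 (-0.21) and CXCL1 (0.01) did not pass (adjusted p = 0.251 and 0.954). That is 4 of 16 tested cytokines higher and 1 lower. ICAM1, an adhesion molecule bound by leukocytes, had 24.1, 28.6 and 19.6 CPM in control and 41.8, 50.0 and 32.0 CPM in N_30. Its lowest N_30 library lay above its highest control library, and it rose by 0.77 (SE 0.08, adjusted p = 2.59e-06). Of 21 cytokine receptors, OSMR, which binds oncostatin M, rose by 0.29 (adjusted p = 0.00904) and IL13RA2 fell. IL13RA2, a decoy that captures interleukin 13, had 46.0, 66.3 and 49.3 CPM in control and 24.4, 27.9 and 21.6 CPM in N_30, a log2 fold change of -1.12 (SE 0.08, adjusted p = 2.80e-08). ICAM1, CSF1, LIF, IL32 and OSMR were not called without the block (adjusted p = 0.059, 0.325, 0.416, 0.52 and 0.311), and LIF not without the libraries numbered 2 (adjusted p = 0.0554).

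Interferon response genes and genes that load peptides on HLA class I were higher in part. IFI16, a nuclear sensor of DNA, had 9.61, 9.64 and 9.27 CPM in control and 17.0, 19.9 and 17.5 CPM in N_30. Both groups were tight and far apart, and IFI16 rose by 0.93 (SE 0.10, adjusted p = 4.95e-06), in all 16 alternative fits as well. IFITM3 (0.40, adjusted p = 0.000898) and IFITM2 (0.36, adjusted p = 0.0071), membrane proteins that hinder virus entry, rose, and as near-identical copies they may share reads. IFI35 (0.45) and IRF1 (0.46), a transcription factor of interferon signalling, rose with adjusted p of 0.0066 and 0.0117. OAS1, which makes the activator of RNase L, fell by 0.77 on the log2 scale (adjusted p = 0.00252), and OAS3 (-0.13) and the RNA sensor RIGI (-0.18) did not pass (adjusted p = 0.333 and 0.266). The list had 8 of 27 members higher and 1 lower, with a median of 0.23. In the HLA class I list 4 of 15 rose, the light chain B2M (0.22) and the immunoproteasome subunits PSMB8 (0.44), PSMB9 (0.55) and PSMB10 (0.61), with adjusted p of 0.0405, 0.00811, 0.016 and 0.0408. PSMB8 and PSMB9 count in both lists and share 139 exon bases on opposite strands. HLA-C (0.16) and the loading factor TAPBP (0.06) did not pass (adjusted p = 0.18 and 0.682), and 14 of the 15 members lay above 0, against 49.2% of all genes. Without the block 1 interferon gene (IFI16) and 0 HLA class I genes rose, and by DESeq2 3 and 0. Without the libraries numbered 1, 2 or 3, the interferon genes that rose were 10, 4 and 4, and the HLA class I genes 5, 2 and 0. PSMB10 was lost on leaving out any of the 3 numbers (adjusted p = 0.0834, 0.187 and 0.0504), B2M without those numbered 2 or 3 (adjusted p = 0.0503 and 0.189), IFI35 without number 2 (adjusted p = 0.157), and PSMB8 and PSMB9 without number 3 (adjusted p = 0.055 and 0.0673).

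**Figure D3:**
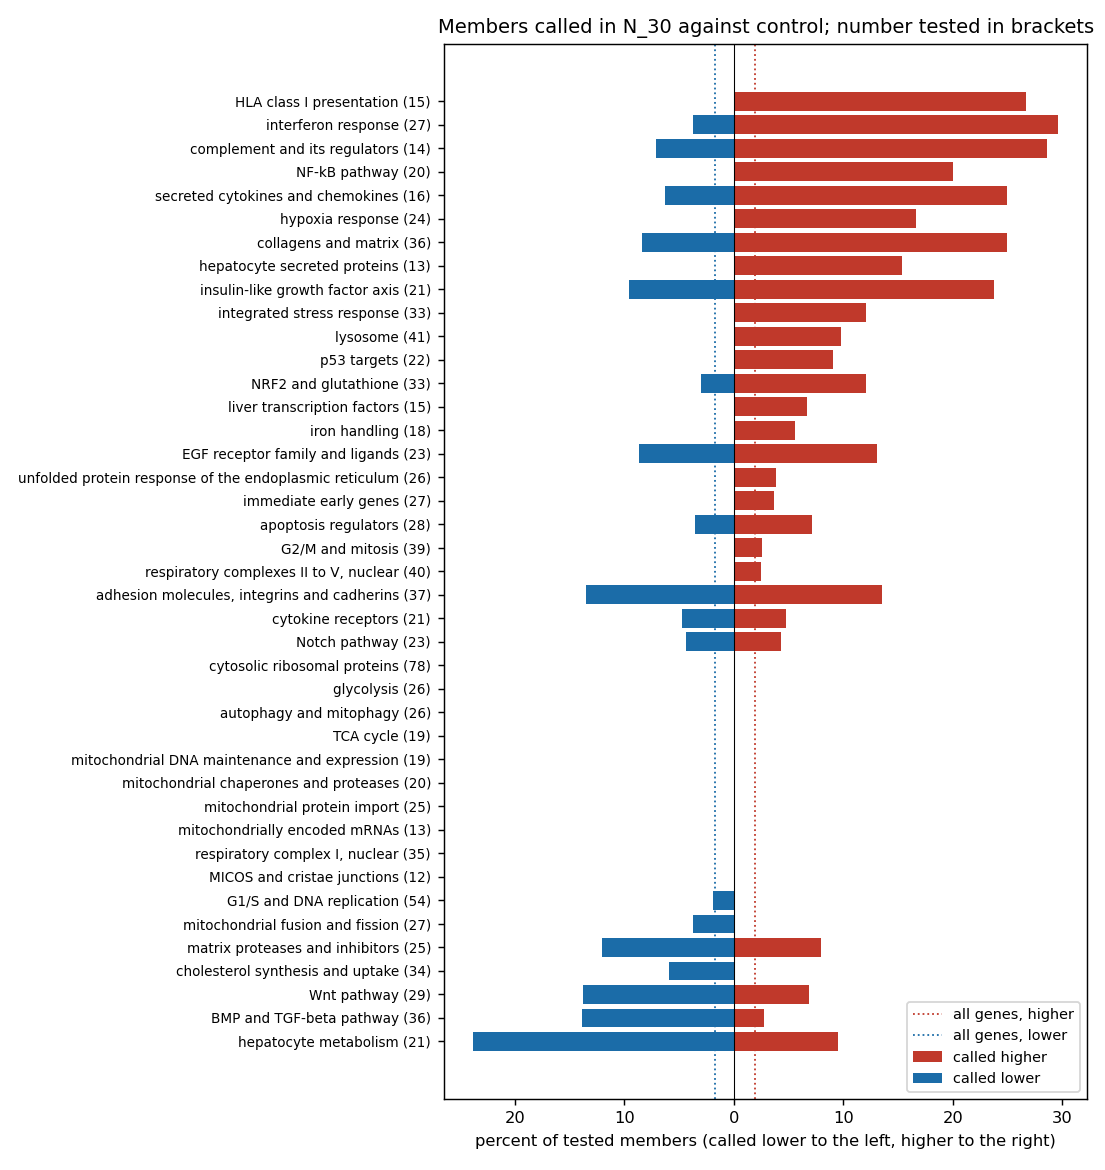
Percent of the tested members of each gene list, cell type marker lists left out, called higher (to the right) or lower (to the left) in N_30, with the number tested in brackets and dotted lines at the shares over all genes (1.96% and 1.73%). Lists are ordered by the share called higher minus the share called lower, with HLA class I, interferon and complement at the top, and 10 of those drawn have no member called.

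Binding proteins of insulin-like growth factors (IGF) changed together with IGF2. IGFBP1, a binder that liver secretes in fasting, was low, at 2.65, 2.92 and 2.48 CPM in control and 6.13, 11.7 and 5.28 CPM in N_30. Library 2 of N_30 was highest and the groups did not overlap, with a rise of 1.47 (SE 0.17, adjusted p = 2.18e-05). IGFBP3, the main carrier in serum, rose by 0.44 (adjusted p = 0.000397) and IGFBP4 by 0.38 (adjusted p = 0.000763), from 362 to 469 CPM. The stanniocalcins STC1 (0.22, adjusted p = 0.0385) and STC2 (0.25, adjusted p = 0.0242), which inhibit a protease that cuts IGFBP4, rose as well. IGF2, a fetal growth factor, had 1.86, 1.59 and 1.85 CPM in control and 0.360, 0.353 and 0.447 CPM in N_30, and fell by 2.16 on the log2 scale (SE 0.33, adjusted p = 0.000359). It shares exons with a read-through gene of INS, so its reads are uncertain in their assignment. IGFBP2 fell by 0.48 (adjusted p = 0.00959), and the receptor IGF2R (0.14) and the adaptor IRS1 (-0.04) did not pass (adjusted p = 0.242 and 0.832). Of 21 tested members 5 rose and 2 fell. Without the block IGFBP1 (adjusted p = 0.0339) and IGF2 (adjusted p = 0.00507) were called and the other 5 were not, and 3 members rose without the libraries numbered 2, where STC2 had an adjusted p of 0.149.

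In the EGF receptor family, TGFA, a ligand of the receptor, had 3.38, 3.54 and 3.92 CPM in control and 8.47, 9.13 and 8.19 CPM in N_30. The gap between the groups was many times the spread within them, and TGFA rose by 1.24 (SE 0.13, adjusted p = 8.87e-06), in all 16 alternative fits. The ligand EREG rose by 0.28 (adjusted p = 0.0123) and the phosphatase DUSP5 by 0.23 (adjusted p = 0.0455). DUSP4 and SPRY2, feedback inhibitors of the pathway, fell by 0.32 and 0.28 on the log2 scale (adjusted p = 0.00356 and 0.0132). The receptor EGFR (0.10) and the ligand NRG1 (0.12) did not pass (adjusted p = 0.435 and 0.316), nor did 16 more of the 23 tested members. Without the block TGFA alone was called, and SPRY2 was lost without the libraries numbered 3 (adjusted p = 0.199).

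In the Notch list, 1 of 23 tested members rose and 1 fell. DNER, a transmembrane ligand of Notch, had 4.12, 4.82 and 2.25 CPM in control and 9.97, 12.8 and 6.31 CPM in N_30, and rose by 1.38 (SE 0.13, adjusted p = 1.42e-06). DLK1, a non-canonical ligand of fetal liver, had 116, 81.5 and 80.0 CPM in control and 55.4, 43.7 and 52.1 CPM in N_30, a log2 fold change of -0.86 (SE 0.07, adjusted p = 5.16e-07). Neither gene's groups overlapped, which was a condition for the 30 genes of largest change. The ligand JAG1 (-0.15) and the receptor NOTCH2 (0.06) did not pass (adjusted p = 0.179 and 0.685), and DNER was not called without the block (adjusted p = 0.058).

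In the Wnt list, 2 of 29 rose and 4 fell, with a median of -0.13. SFRP1, a secreted antagonist of Wnt, had 394, 350 and 371 CPM in control and 145, 163 and 186 CPM in N_30. That is 44.3% of control, and SFRP1 fell by 1.18 on the log2 scale (SE 0.07, adjusted p = 5.80e-09). The receptors FZD1 (-0.58, adjusted p = 0.00138) and FZD8 (-0.69, adjusted p = 0.0161) and the secreted DKK3 (-0.62, adjusted p = 0.0306) fell, and the antagonist DKK1 (0.38, adjusted p = 0.005) and the ligand WNT7B (0.22, adjusted p = 0.037) rose. WNT5B (0.07) and FZD2 (-0.14), of higher level, did not pass (adjusted p = 0.643 and 0.258). Without the block SFRP1 alone was called, and without the libraries numbered 3 no member rose (adjusted p = 0.222 for DKK1).

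BMP signalling, which patterns tissues and in liver sets hepcidin, had ligands that fell. BMP6 had 9.76, 7.43 and 7.16 CPM in control and 4.99, 4.59 and 4.16 CPM in N_30, and fell by 0.82 on the log2 scale (SE 0.13, adjusted p = 0.00061). GDF7 fell by 1.06 (adjusted p = 0.000233), BMP4 by 0.65 (adjusted p = 0.00413), the receptor ACVR2B by 0.47 (adjusted p = 0.0189) and the target ID3 by 0.48 (adjusted p = 0.00397). TGFBI, a matrix protein induced by TGF-beta, had 411, 325 and 342 CPM in control and 531, 458 and 536 CPM in N_30. Its groups did not overlap, and it rose by 0.50 (SE 0.06, adjusted p = 3.33e-05). TGFB1 (0.01) did not pass (adjusted p = 0.958). Of 36 members 1 rose and 5 fell, and BMP4, ACVR2B and ID3 were not called without the block (adjusted p = 0.144, 0.138 and 0.158).

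The other largest falls were of genes with varied roles. KIF1A, a motor that carries vesicles along axons, had 110, 102 and 96.5 CPM in control and 56.2, 49.6 and 43.8 CPM in N_30 (-1.05, SE 0.06, adjusted p = 4.36e-09). IAPP, the islet hormone amylin, had 70.0, 78.2 and 75.5 CPM in control and 37.2, 40.5 and 37.0 CPM in N_30 (-0.97, SE 0.06, adjusted p = 1.21e-08). SCG2, a granin of secretory granules, fell by 0.70 (adjusted p = 5.06e-07), from 167 to 103 CPM. In each of these, the groups stood further apart than any libraries within a group. MCAM, an adhesion molecule, had 79.8, 68.8 and 83.8 CPM in control and 42.3, 39.1 and 50.9 CPM in N_30 (-0.81, SE 0.06, adjusted p = 1.47e-07), and shares 509 exon bases with CBL on the opposite strand. ADGRL4, an adhesion receptor known from endothelium, fell by 0.87 (adjusted p = 7.07e-07) and ANGPT1, a vessel ligand, by 0.83 (adjusted p = 9.72e-05). TLR4, the receptor of bacterial lipopolysaccharide, fell by 0.83 (adjusted p = 0.000493) from 8.70 to 4.88 CPM. The amino acid carrier SLC38A4 fell by 0.97 (adjusted p = 0.000173) from 8.13 to 4.15 CPM. LRATD2, ZBED2 and the non-coding LINC02535 fell by 0.81, 0.79 and 0.80 (adjusted p = 9.68e-06, 2.86e-05 and 2.95e-05). All genes of this paragraph were called without the block too.

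The other largest rises were also of genes with varied roles. IGFN1, an immunoglobulin-domain protein known from muscle, stood at 197, 266 and 279 CPM in control and 520, 521 and 517 CPM in N_30. The N_30 libraries were nearly equal, and IGFN1 rose by 1.09 (SE 0.08, adjusted p = 2.98e-08). SYNPO, an actin-bound protein of podocytes and dendritic spines, had 64.2, 58.9 and 63.4 CPM in control and 119, 116 and 109 CPM in N_30 (0.88, SE 0.06, adjusted p = 2.80e-08). The protocadherin PCDH7 rose by 0.84 (adjusted p = 5.16e-06), RIPOR3 by 0.96 (adjusted p = 5.23e-06) and the kinase ALPK2 by 0.83 (adjusted p = 0.000161). HLF, a transcription factor of the circadian output, rose by 1.08 (adjusted p = 8.52e-05), from 4.38 to 9.16 CPM. ALPK2 and HLF were not called without the block (adjusted p = 0.108 and 0.102).

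The hepatocyte genes that could be tested changed in both directions. BAAT, which joins bile acids to taurine or glycine, had 17.2, 18.4 and 14.6 CPM in control and 8.35, 7.21 and 5.77 CPM in N_30. Its highest N_30 library lay well under its lowest control library, at 42.6% of control on average. BAAT fell by 1.24 on the log2 scale (SE 0.11, adjusted p = 5.16e-07), in all 16 alternative fits. Glutamine synthetase (GLUL) fell by 0.41 (adjusted p = 0.000684), the esterase AADAC by 0.95 (adjusted p = 0.0338), CYP2E1 by 0.52 (adjusted p = 0.0293) and the fatty acid carrier SLC27A2 by 1.11 (adjusted p = 0.0313). Of these AADAC and SLC27A2 were low, at 2.67 and 1.84 CPM in control. ASS1, an enzyme of the urea cycle, had 9.86, 9.28 and 8.37 CPM in control and 18.2, 16.5 and 15.6 CPM in N_30, and rose by 0.87 (SE 0.10, adjusted p = 9.91e-06). NNMT, which methylates nicotinamide, rose by 0.83 (adjusted p = 0.00139), from 3.91 to 6.98 CPM. ALDH1A1 (-0.04) and CPT1A (-0.05) did not pass (adjusted p = 0.84 and 0.788). In all, 2 of 21 tested metabolic genes rose and 5 fell, and 2 of the 5 (BAAT and GLUL) were called without the block. Genes called lower were 2 without the libraries numbered 2, 3 without those numbered 3, and 2 by DESeq2.

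Among 13 tested secreted proteins of hepatocytes, 2 rose and 0 fell by edgeR (2 lower at an unadjusted p under 0.05, 0 by DESeq2). Ceruloplasmin (CP), the copper-bearing ferroxidase of plasma, had 17.1, 13.3 and 6.48 CPM in control and 35.7, 24.9 and 19.3 CPM in N_30, and rose by 1.15 (SE 0.11, adjusted p = 1.42e-06). The control libraries spread widely, number 3 was lowest in both groups, and CP was not called without the block (adjusted p = 0.14). CP shares 1418 exon bases with HPS3 on the opposite strand. FGG, a chain of fibrinogen, rose by 0.72 (adjusted p = 0.00639, and 0.209 without the block), while its partner FGB (0.21) and APOE (0.03) did not pass (adjusted p = 0.473 and 0.879). Of 15 liver transcription factors CEBPB, a factor of the acute phase response, rose by 0.54 (adjusted p = 1.98e-05, and 0.0974 without the block), with 81.9, 101 and 84.9 CPM in control and 116, 162 and 114 CPM in N_30. FOXA2 (-0.03) did not pass (adjusted p = 0.876).

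The matrix list had 9 of 36 tested members higher and 3 lower, with a median of 0.03. Biglycan (BGN), a small proteoglycan, had 22.3, 19.1 and 25.3 CPM in control and 38.7, 38.1 and 46.3 CPM in N_30, and rose by 0.89 (SE 0.08, adjusted p = 7.03e-07). COL1A1, a chain of type I collagen, had 88.7, 59.3 and 68.0 CPM in control and 173, 106 and 102 CPM in N_30, and rose by 0.80 (SE 0.07, adjusted p = 5.16e-07), while its partner chain COL1A2 (0.04) did not pass (adjusted p = 0.841). COL5A1 (0.76, adjusted p = 0.000105), COL7A1 of anchoring fibrils (0.40, adjusted p = 0.000271) and COL3A1 (0.59, adjusted p = 0.0477) rose as well. So did LAMA3 (0.62, adjusted p = 8.25e-06) and LAMB3 (0.67, adjusted p = 0.00303), chains of one laminin, NID2 (0.71, adjusted p = 0.00612) and tenascin TNC (0.33, adjusted p = 0.00814). HSPG2, the basement membrane proteoglycan perlecan, had 529, 396 and 389 CPM in control and 318, 270 and 257 CPM in N_30. Its groups did not overlap, and it fell by 0.63 on the log2 scale (SE 0.06, adjusted p = 1.33e-06), as did NID1 by 0.28 (adjusted p = 0.00581) and FBLN1 by 0.38 (adjusted p = 0.00288). Of 5 tested markers of fibroblasts and stellate cells, 2 rose (COL1A1 and COL3A1). Of the 10 listed, 5 stayed under 1 CPM in each of the 6 libraries. Among these, DCN, LUM and PDGFRA had no control count and reached at most 0.180 CPM in N_30. Other listed markers were well expressed, with COL1A2 at 655 CPM and RGS5 at 76.7 CPM in control. The summed level of the list ran from 704 to 935 CPM in control and from 775 to 968 CPM in N_30. Without the block 3 matrix genes rose (BGN, COL5A1 and LAMA3) and 1 fell (HSPG2), and COL3A1 was lost without the libraries numbered 2 or 3 (adjusted p = 0.0571 and 0.443).

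Adhesion genes had 5 of 37 members higher and 5 lower. SDC4, a syndecan of focal adhesions, had 83.8, 89.6 and 81.5 CPM in control and 126, 133 and 119 CPM in N_30, and rose by 0.56 (SE 0.06, adjusted p = 4.58e-06). The groups were well apart. The integrins ITGA5 (0.25, adjusted p = 0.0288) and ITGB3 (0.77, adjusted p = 0.0142) rose, and ITGB1 (0.06) and ITGA3 (0.10), of higher level, did not pass (adjusted p = 0.681 and 0.441). The junction protein JAM3 fell by 1.04 (adjusted p = 0.000809), the glypican GPC4 by 1.09 (adjusted p = 0.00508), and CADM4 and BCAM by 0.28 each (adjusted p = 0.00851 and 0.00883). Without the block 2 rose (PCDH7 and SDC4) and 2 fell (MCAM and JAM3).

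Of 25 matrix proteases and inhibitors 2 rose and 3 fell, and 0 did so without the block. The plasminogen activator PLAT fell by 0.58 on the log2 scale (adjusted p = 0.00301), ADAM19 by 0.35 (adjusted p = 0.00455) and MMP10 by 0.73 (adjusted p = 0.0356), and ADAMTS9 rose by 0.41 (adjusted p = 0.0291). MMP2, a gelatinase, rose by 2.02 (SE 0.44, adjusted p = 0.0105) from very low levels, 0.147, 0.410 and 0.360 CPM in control against 2.04, 0.757 and 1.12 CPM in N_30. The collagenase MMP1 (0.12), at 952 CPM in control, did not pass (adjusted p = 0.338). Leaving out the libraries numbered 1 ended the call of MMP2 and lowered its value to 1.29 (adjusted p = 0.094), and leaving out those numbered 3 ended those of ADAM19 and ADAMTS9 (adjusted p = 0.0606 and 0.227). Members called lower were 2 without the libraries numbered 2 and 1 without those numbered 3, MMP10 not among them.

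The shares called in lists of mitochondrial structure lay near or below the 3.69% of all genes, so they set these lists apart in no way. Of 27 genes of fusion and fission, OPA1 fell and 0 rose by edgeR (2 higher at an unadjusted p under 0.05, 0 by DESeq2). The mitofusins MFN1 (0.10) and MFN2 (-0.04), the fission GTPase DNM1L (-0.08) and the OPA1 proteases OMA1 (0.03) and YME1L1 (0.01) did not pass (adjusted p = 0.526, 0.824, 0.59, 0.963 and 0.956). Of 12 MICOS genes 0 were called by edgeR or DESeq2, with 1 at an unadjusted p under 0.05. The central MICOS subunit IMMT had 91.3, 90.1 and 85.3 CPM in control and 88.2, 86.2 and 90.7 CPM in N_30, with the groups mixed (-0.01, adjusted p = 0.975).

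Genes of respiration gave a single call. COX7C, a small subunit of cytochrome oxidase, was the 1 of 40 nuclear genes of complexes II to V to rise, with 143, 150 and 137 CPM in control and 177, 189 and 177 CPM in N_30 (0.34, SE 0.06, adjusted p = 0.00097). Of 35 nuclear genes of complex I 0 were called by either tool, with 3 at an unadjusted p under 0.05, NDUFV1 (0.00) not among them. Over all genes tested, 2283 of 14637 lay under that threshold, a larger share than 3 of 35. The 13 mRNAs made from mitochondrial DNA had 0 calls by either tool and 0 at an unadjusted p under 0.05. Of the 13, 11 lay below 0 (7435 of 14637 over all genes), with a median of -0.07, and 5 fell without the libraries numbered 1. The oxidase subunit MT-CO1 ran from 8922 to 11544 CPM in control and from 8787 to 11106 CPM in N_30 (-0.14, adjusted p = 0.339). Protein import (25 tested), chaperones and proteases (20), DNA maintenance (19) and the TCA cycle (19) had 0 calls by edgeR and by DESeq2. At an unadjusted p under 0.05 these lists had 3, 1, 1 and 2 genes.

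The integrated stress response had 4 of 33 members higher and 0 lower by edgeR (1 lower at an unadjusted p under 0.05, 0 by DESeq2). GDF15, the stress hormone, had 114, 122 and 76.9 CPM in control and 148, 182 and 105 CPM in N_30, and rose by 0.47 (SE 0.06, adjusted p = 7.12e-05). The groups overlapped, while each N_30 library lay above the control of its number. CEBPB, given above, is in this list too, and both chains of an amino acid exchanger rose, SLC3A2 by 0.26 (adjusted p = 0.00776) and SLC7A5 by 0.23 (adjusted p = 0.03). ATF4 (-0.01), its targets ASNS (0.16) and TRIB3 (0.04), and DDIT3 (0.42) did not pass (adjusted p = 0.98, 0.411, 0.807 and 0.0652). Of 26 unfolded protein response genes 1 rose, HERPUD1 (0.34, adjusted p = 0.0189), a protein of ER degradation, and the chaperone HSPA5 (0.18) did not pass (adjusted p = 0.122). The share called, 3.85%, was near the 3.69% of all genes. Above 0 lay 24 of the 26, against 49.2% of all genes. Without the block 0 members of either list were called. SLC3A2 (adjusted p = 0.0619 and 0.067) and SLC7A5 (adjusted p = 0.0777 and 0.448) were lost without the libraries numbered 2 or 3, and HERPUD1 without those numbered 2 (adjusted p = 0.262).

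Lysosomal genes leaned upward, with 4 of 41 called higher, 0 lower and 35 above 0, at a median of 0.15. Over all genes 49.2% lay above 0, at a median of -0.003. The protease cathepsin D (CTSD) had 147, 133 and 120 CPM in control and 189, 177 and 185 CPM in N_30, and rose by 0.47 (SE 0.06, adjusted p = 9.72e-05). CTSA (0.34, adjusted p = 0.00162), which protects lysosomal glycosidases, and the cholesterol exporter NPC1 (0.31, adjusted p = 0.00332) rose as well. PSAP (0.12) and GRN (0.10) did not pass (adjusted p = 0.294 and 0.485). At an unadjusted p under 0.05, 22 were higher and 2 lower (2283 of 14637 over all genes, in either direction), and by DESeq2 4 and 0 were called. Without the block CTSD alone was called, and CTSA stood just over the threshold (adjusted p = 0.0501). Without the libraries numbered 1 there were 15 called higher, and without those numbered 2 NPC1 was lost (adjusted p = 0.0547). Of 26 genes of autophagy and mitophagy 0 were called by either tool (4 higher and 1 lower at an unadjusted p under 0.05), with the receptor SQSTM1 at 0.20 (adjusted p = 0.055).

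Antioxidant genes under NRF2 changed in both directions, 4 of 33 higher and 1 lower. HMOX1, which breaks down heme, had 46.8, 81.5 and 36.9 CPM in control and 104, 126 and 47.0 CPM in N_30. The libraries varied widely and the groups overlapped, while each numbered pair was higher in N_30, with a rise of 0.71 (SE 0.10, adjusted p = 0.000105). SOD2, the mitochondrial superoxide dismutase, rose by 0.51 (adjusted p = 0.000176), and AKR1C1 (0.45, adjusted p = 7.38e-05) and its near-identical copy AKR1C2 (0.28, adjusted p = 0.00483) rose. NQO1, a quinone reductase, fell by 0.43 on the log2 scale (adjusted p = 0.000479), and TXNRD1 (0.08) and TKT (0.07) did not pass (adjusted p = 0.646 and 0.627). The ferritin heavy chain FTH1, the 1 of 18 iron genes to change, rose by 0.38 (adjusted p = 0.000271), from 269 to 350 CPM, and has near-identical copies. None of these was called without the block (adjusted p from 0.0563 for FTH1 to 0.58 for AKR1C2), and SOD2 shares 298 exon bases with WTAP on the opposite strand.

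In the hypoxia list 4 of 24 rose and 0 fell by edgeR, with 0 lower at an unadjusted p under 0.05 and by DESeq2. EPAS1, the transcription factor HIF-2alpha, had 101, 98.7 and 89.2 CPM in control and 136, 135 and 134 CPM in N_30, and rose by 0.49 (SE 0.06, adjusted p = 3.33e-05), in all 16 alternative fits. The N_30 libraries were nearly equal. VEGFA (0.28, adjusted p = 0.00891), a growth factor of vessels, BHLHE40 (0.38, adjusted p = 0.0114) and STC2 (0.25, adjusted p = 0.0242) rose, and these 3 were lost without the block and without the libraries numbered 2 (adjusted p = 0.069, 0.331 and 0.149 in the latter). Of 22 p53 targets CDKN1A, an inhibitor of the cell cycle, rose by 0.42 (adjusted p = 0.000581) and PLK2 by 0.27 (adjusted p = 0.0114), and BAX (-0.04) did not pass (adjusted p = 0.815). Of 28 apoptosis regulators the sensitizer BMF rose by 0.34 (adjusted p = 0.0098), BIRC3 rose as given above, and APAF1 of the apoptosome fell by 0.33 on the log2 scale (adjusted p = 0.0412). CDKN1A, PLK2, BMF and APAF1 were not called without the block (adjusted p = 0.449, 0.14, 0.662 and 0.27), and APAF1 was lost on leaving out any of the 3 library numbers (adjusted p = 0.0539, 0.0663 and 0.0808). BMF was lost without those numbered 2 or 3 (adjusted p = 0.0889 and 0.106), and PLK2 without those numbered 3 (adjusted p = 0.135).

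Genes of growth and central metabolism showed few calls. Over all genes tested, 3.69% were called, 7435 of 14637 lay below 0, and 2283 had an unadjusted p under 0.05 in either direction. Of 54 genes of G1/S and replication the GINS subunit GINS4 fell by 0.45 on the log2 scale (adjusted p = 0.000108, and 0.0725 without the block), and 48 lay below 0, with a median of -0.08. In G2/M and mitosis the phosphatase CDC25B rose by 0.25 (adjusted p = 0.0184), the 1 of 39 called, and was lost without the libraries numbered 2 or 3 (adjusted p = 0.334 and 0.133). Of the 39, 33 lay below 0, with a median of -0.07, 10 were lower and 1 higher at an unadjusted p under 0.05, and 4 were called lower without the libraries numbered 1. MKI67 (-0.04) and TOP2A (-0.19) did not pass (adjusted p = 0.814 and 0.0632). In cholesterol synthesis and uptake 2 of 34 fell, among them the desaturase FADS2 (-0.30, adjusted p = 0.00623), and 32 lay below 0 at a median of -0.08. FASN (-0.18) and SCD (-0.17) did not pass (adjusted p = 0.139 and 0.136), and FADS2 was not called without the block (adjusted p = 0.282). Members called lower were 0 without the block and 10 without the libraries numbered 1. The 26 genes of glycolysis and 78 of the cytosolic ribosome had 0 calls by either tool, with 2 and 9 at an unadjusted p under 0.05. Of 27 immediate early genes KLF4 rose by 0.48 (adjusted p = 0.00952, 0.397 without the block and 0.0571 without the libraries numbered 2), and JUN (-0.07) did not pass (adjusted p = 0.618).

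The knock-down set N_28 was read beside N_30 for the 30 genes of largest change. N_28 and N_30 share the control libraries, so their changes are given side by side, and the genes were chosen on the N_30 libraries, so differences between the sets are a description. In a fit of all 9 libraries, 15.3% of 15019 genes were called in N_28 against control and 24.5% in N_30 against N_28. BAAT stood at 16.7 CPM in control, 7.16 ± 1.67 CPM in N_28 and 7.11 CPM in N_30, and IGFBP1 at 2.68, 6.94 ± 0.601 and 7.70 CPM (SD, n = 3). For these the N_30 minus N_28 difference was -0.01 (SE 0.12) and 0.09 (SE 0.19) on the log2 scale, and IGFN1 was the third of the 30 not called between the sets (0.12, SE 0.09). C3 stood at 28.4 CPM in control, 13.3 ± 2.82 CPM in N_28 and 99.5 CPM in N_30, and SFRP1 at 371, 622 ± 74.1 and 165 CPM. OPA1 was 55.6 ± 2.25 CPM in N_28 and so lower than in N_30, by 0.21 on the log2 scale (SE 0.06, adjusted p = 0.0111).

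**Figure D4:**
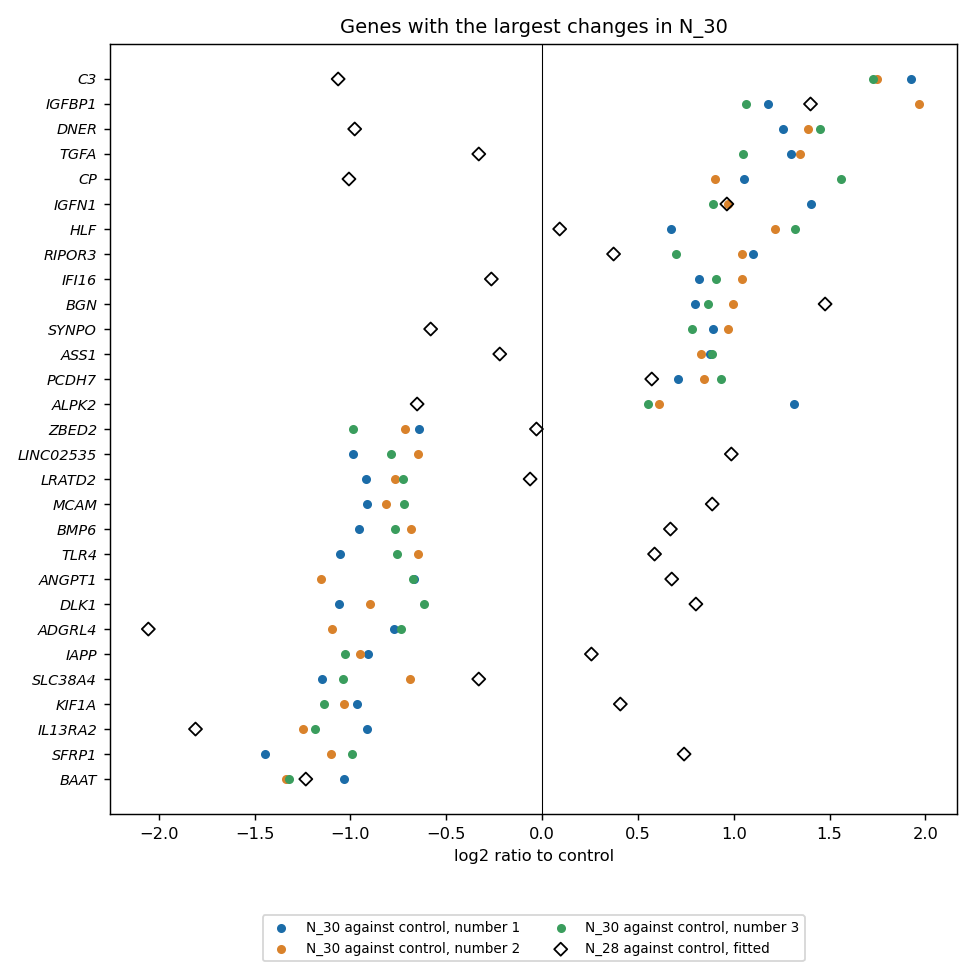
Log2 ratio of each N_30 library to the control of its number (coloured points) for genes among the 30 of largest change, with the fitted N_28 against control value as an open diamond. BAAT and IGFBP1 have the diamond among the points, while C3 and SFRP1 have it across 0 from them.

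The counts and medians by chromosome leave out tested genes that averaged under 5 CPM over the 6 libraries. Of the called genes, 456 reached this level. Medians ran from -0.08 (chromosome 13, 165 genes) to 0.06 (chromosome 22, 254 genes). Over all genes tested the median was -0.003, with 1.96% called higher and 1.73% called lower. Those values include genes under 5 CPM, so they are not of the same set. No test was made of the chromosome counts. On chromosome 13, 0 genes rose and 4 fell, among them the actin nucleator DIAPH3 (-0.31, adjusted p = 0.0143) and the spindle protein CKAP2 (-0.28, adjusted p = 0.0245), both lost without the libraries numbered 2 or 3 and without the block. On chromosome 18, 11 of 154 rose and 1 fell, led by LAMA3, TNFRSF11A and ALPK2. TNFRSF11A, the receptor RANK, had 14.7, 18.2 and 15.2 CPM in control and 24.4, 31.0 and 26.8 CPM in N_30 (0.77, SE 0.08, adjusted p = 9.91e-06). Its groups did not overlap. On chromosome 15, 10 of 341 rose and 1 fell, and on chromosome 8, 4 of 385 rose and 13 fell, with a median of -0.04. On chromosome 20, CYP24A1, which breaks down vitamin D, fell by 0.52 on the log2 scale (adjusted p = 1.07e-05), from 242 to 169 CPM, while 13 of 305 rose at a median of 0.05. On chromosome 22, NPTXR, a receptor of neuronal pentraxins, rose by 0.64 (adjusted p = 6.62e-06), and on chromosome 17 its partner NPTX1 by 0.60 (adjusted p = 3.53e-06, and 0.0986 without the block).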

How the data were processed

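RNA of 9 libraries was sequenced, and 6 are compared here. The authors deposited raw read counts per gene under human Ensembl identifiers (60448 rows). A mouse build, mm8, is named in the submitters' processing notes. The aligner, read counter, annotation and strand setting were not given in sources used here. Symbols came from a gene name table (56434 rows) or GENCODE 29 (434), and 3580 rows have none. The members and gene lists were chosen with earlier results of these data known.

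Counts were filtered (edgeR's expression filter, minimum count 10), scaled by TMM and tested with edgeR 4.0.16 (R 4.3.3) with a block for library number. Deviations of same-numbered libraries correlated at 0.124, 0.176 and 0.297, and those of differently numbered ones at -0.253 to 0.0911. The numbers are read as pairs on this ground, from the data and not the labels, and the highest unmatched value lies close to the lowest matched one. The block was known to raise the number of calls when the comparison was planned. SE is the fold change over the root of the test statistic. No library is a copy of another (chi-square per gene between replicates 5.71 to 12.7). On simulated data with 14637 genes, 93 of 100 genes changed 1.5-fold and 100 of 100 changed 2-fold were recovered, and 5 unchanged genes were called. The changed genes all had a mean of at least 5 CPM. The simulation had the numbered pairs built in and a spread set by level alone, so it covers neither lower genes nor the choice of the block. Alternatives (DESeq2 1.42.0, no block, other scaling and filters, libraries left out) are given in the closing section.

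Named genes are OPA1, C3, IGFBP1 and BAAT; the 15 largest rises and 15 largest falls among called genes whose mean reached 5 CPM and whose groups did not overlap; the 10 of lowest adjusted p; in each list up to 4 called and 2 uncalled members; and up to 3 genes per chromosome. Other list members were named after their values were seen. Some genes of these lists are counted but not reported here by name.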

Additional observations from a re-analysis of the deposited data

Results flagged for a closer look

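Among the 30 genes of largest change in N_30, those given here lay on the opposite side of control in the N_28 set with both sets called, and the difference between the sets was called by edgeR's quasi-likelihood test of all 9 libraries with the block. As the genes were chosen on the N_30 libraries, the sizes are a description. Of the genes that rose in N_30, the N_30 minus N_28 difference was 2.87 for C3, 2.36 for DNER, 2.15 for CP, 1.49 for ALPK2 and 1.47 for SYNPO on the log2 scale. Of the genes that fell, it was -1.92 for SFRP1, -1.79 for LINC02535, -1.70 for MCAM, -1.67 for DLK1 and -1.51 for ANGPT1. It was -1.49 for BMP6, -1.45 for KIF1A, -1.41 for TLR4 and -1.22 for IAPP. Groups of 3 libraries were not searched for single outlying libraries.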

How the results depend on the processing

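With the replicate block, which was read from the data and not the labels, 287 genes rose and 253 fell. Without the replicate block these were 45 and 43, and of the 128 named called genes 51 kept their call. All 9 libraries gave 233 and 191 with the block and 69 and 61 without it, DESeq2 143 and 112, no filter on low counts 430 and 379, a filter at a mean of 5 CPM 239 and 197, and relative log expression scaling 289 and 252. Leaving out the libraries of 1 number gave 195 to 763 higher and 200 to 665 lower with the block, and leaving out 1 library without the block gave 21 to 108 and 15 to 66 (30 and 23, 38 and 41, 27 and 34 for control replicates 1, 2 and 3; 21 and 16, 22 and 15, 108 and 66 for N_30 replicates 1, 2 and 3). OPA1 ranged from -0.50 to -0.42 with numbers left out. Without the block it missed the threshold without N_30 replicate 1 (-0.46, adjusted p = 0.0568) and without N_30 replicate 2 (-0.44, adjusted p = 0.064). No named called gene changed sign under the 16 alternatives. Calls were less steady: of all 540 called genes, 28 were called the same way in every alternative that gave them a value. By DESeq2, 253 of the 540 were called the same way. The causes of the changes in counts were not tested.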

Other observations

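Of the 540 called genes, 84 had a mean under 5 CPM, outside the bound for the largest changes, and 41 of these changed by at least 1 on the log2 scale. The genes named here were chosen after their values were seen. Calbindins, which buffer calcium, rose: CALB1 had 0.245, 0.154 and 0.315 CPM in control and 1.44, 1.11 and 2.46 CPM in N_30 (2.78, SE 0.37, adjusted p = 8.82e-05), and CALB2 rose by 1.59 (SE 0.15). The carboxypeptidase CPA4 rose by 1.57 (SE 0.15). HERC5, which attaches the interferon-induced modifier ISG15, had 3.24, 3.38 and 2.52 CPM in control and 0.781, 1.51 and 1.21 CPM in N_30 (-1.36, SE 0.23, adjusted p = 0.00138). SH3TC2 fell by 1.08 on the log2 scale (SE 0.17). All 5 were called without the block too, and adjusted p-values are Benjamini-Hochberg values of the edgeR quasi-likelihood test. One row with no symbol fell by 1.74 (adjusted p = 0.0226) with 41.5 CPM in control library 3 and 2.10 to 4.47 CPM in the other 5 libraries, so its value rests on that library.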
